A study of Homo sapiens with 12 samples.

Results

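The JURKAT STAT5B peak list is described here: the intervals of the genome in which chromatin pulled down with an anti-STAT5B antibody gave more fragments than the input chromatin of the same line. Its members are all peaks that the deposited JURKAT list places on chromosomes 1 to 22, which are 5905 of its 6316 peaks, and they are 5905 of the 23569 autosomal peaks in the 6 STAT5B lists of the series (24844 peaks on all chromosomes). The study mapped STAT5B by ChIP-seq in established human T-cell acute lymphoblastic leukemia (T-ALL) lines that differ in the tyrosine phosphorylation of STAT5. The labels give JURKAT and LOUCY as low pY-STAT5 and HSB-2, KOPT-K1, SUP-T13 and DND-41 as high pY-STAT5, all as precursor T cells in RPMI, with an antibody from R&D Systems against STAT5B for the pull-down, no antibody for the input and the genotype label WT, which leaves out the *STAT5B* mutation of KOPT-K1 and the *IL7R* mutation of DND-41. Each line has 1 STAT5B library and 1 input library, so there are no replicates, and the read depth of the libraries is not stated. The question addressed is where in the genome a line with low pY-STAT5 gave STAT5B peaks, and the 5 other lists serve as reference.

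STAT5B is a latent transcription factor that Janus kinases phosphorylate on a tyrosine after cytokines such as IL-2 or IL-7 bind their receptors. The phosphorylated protein forms a dimer through its SH2 domains, enters the nucleus and binds the GAS element, an inverted repeat with the letters TTCNNNGAA, in promoters, introns and distal enhancers. In T-ALL, an aggressive leukemia of immature T cells, mutations in the IL-7 receptor, in Janus kinases or in STAT5B itself can keep this pathway switched on. JURKAT is a T-ALL line in which the transcription factor TAL1 is switched on by a mutated enhancer.

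The sequences around a group of summits (the base with the strongest signal in a peak) show what kinds of DNA the list holds. All are GRCh38 reference sequence of the plus strand, the summit with 50 bases to either side. The first set shows the promoter summits with a GAS element within 50 bases that have the highest -log10 q and that lie outside untranslated regions, with the GAS element in capitals.
IFT172 (chr2:27489487-27489587): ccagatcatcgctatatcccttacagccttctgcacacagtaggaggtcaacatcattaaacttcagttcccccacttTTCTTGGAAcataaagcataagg
NBPF14 and NOTCH2NLB (chr1:148680880-148680980): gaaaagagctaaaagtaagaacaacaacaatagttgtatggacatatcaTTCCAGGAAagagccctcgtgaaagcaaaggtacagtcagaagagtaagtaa
LCE4A (chr1:152707678-152707778): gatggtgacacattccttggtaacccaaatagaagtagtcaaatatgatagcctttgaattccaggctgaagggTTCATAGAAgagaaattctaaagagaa
USP33 (chr1:77721982-77722082): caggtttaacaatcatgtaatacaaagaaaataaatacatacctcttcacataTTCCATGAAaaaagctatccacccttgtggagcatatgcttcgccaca
ADAM30 (chr1:119895351-119895451): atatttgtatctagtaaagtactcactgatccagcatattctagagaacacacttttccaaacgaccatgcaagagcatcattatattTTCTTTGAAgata
GPBP1L1 (chr1:45656210-45656310): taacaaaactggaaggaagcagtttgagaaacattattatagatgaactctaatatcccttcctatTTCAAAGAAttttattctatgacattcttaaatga
CUL3 (chr2:224479306-224479406): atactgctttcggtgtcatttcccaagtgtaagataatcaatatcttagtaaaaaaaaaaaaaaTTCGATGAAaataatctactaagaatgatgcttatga
The second set shows 5 of the 6 GAS-containing summits of highest -log10 q in the whole list, again with the GAS element in capitals, because they show where the STAT5 palindrome lies near a strong JURKAT summit. The centre of the element was at +39, +1, +6, -45 and +45 bases from the summit, in the order printed, and the 31 bases at the summit occur 7, 1416 and 88 times in the genome at summits 1, 2 and 6.
Strongest GAS summit 1 (chr1:121773384-121773484): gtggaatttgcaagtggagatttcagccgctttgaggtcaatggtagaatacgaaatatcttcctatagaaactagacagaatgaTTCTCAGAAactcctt
Strongest GAS summit 2 (chr1:121747495-121747595): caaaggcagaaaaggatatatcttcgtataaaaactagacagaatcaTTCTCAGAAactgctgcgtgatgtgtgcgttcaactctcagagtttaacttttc
Strongest GAS summit 4 (chr1:96091125-96091225): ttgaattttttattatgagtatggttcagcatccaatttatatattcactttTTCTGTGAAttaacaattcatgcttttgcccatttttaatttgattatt
Strongest GAS summit 5 (chr1:98749534-98749634): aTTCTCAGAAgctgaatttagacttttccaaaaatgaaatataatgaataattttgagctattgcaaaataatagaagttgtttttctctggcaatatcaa
Strongest GAS summit 6 (chr3:90941939-90942039): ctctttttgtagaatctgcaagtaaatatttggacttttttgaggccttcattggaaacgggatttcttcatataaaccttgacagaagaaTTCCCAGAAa
The third set shows strong summits without a GAS element, and its capitals mark the pentamer TGGAA or its complement TTCCA, the repeat unit of classical human satellite DNA. Summit 1 has the highest -log10 q, summit 4 lies in the U2 snRNA gene array, summit 8 lies in the 5S rRNA gene array, and summit 14 lies in a tRNA gene cluster.
Summit 1 (chr1:143232911-143233011): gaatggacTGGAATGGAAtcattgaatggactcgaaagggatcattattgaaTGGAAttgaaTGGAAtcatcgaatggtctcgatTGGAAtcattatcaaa
Summit 4 (chr17:43246595-43246695): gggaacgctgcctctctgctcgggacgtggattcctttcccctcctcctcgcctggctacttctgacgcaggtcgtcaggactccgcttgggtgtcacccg
Summit 8 (chr1:228622371-228622471): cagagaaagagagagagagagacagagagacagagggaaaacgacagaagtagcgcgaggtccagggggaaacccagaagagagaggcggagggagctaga
Summit 14 (chr1:161444898-161444998): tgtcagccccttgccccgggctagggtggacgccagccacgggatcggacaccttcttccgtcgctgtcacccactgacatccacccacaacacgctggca
The fourth set shows 3 of the strongest promoter summits without a GAS element and has no capitals, so that their base composition can be read beside the satellite and array sequences.
SF3B1 (chr2:197434841-197434941): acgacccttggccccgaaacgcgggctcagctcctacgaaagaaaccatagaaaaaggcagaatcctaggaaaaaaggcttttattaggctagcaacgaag
NDUFB3 (chr2:201071898-201071998): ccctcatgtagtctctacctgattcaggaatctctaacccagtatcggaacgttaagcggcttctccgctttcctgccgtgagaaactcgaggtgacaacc
WNT10A (chr2:218892848-218892948): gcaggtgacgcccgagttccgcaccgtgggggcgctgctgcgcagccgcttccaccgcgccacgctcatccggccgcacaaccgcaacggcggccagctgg

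The JURKAT list was concentrated on 3 chromosomes. Chromosome 1 held 4366 peaks (73.9%), chromosome 3 held 1055 (17.9%) and chromosome 2 held 470 (7.96%), while 14 peaks lay on chromosomes 4, 5, 7, 10, 16 and 17 and no peak lay on the other autosomes. Most other lists were concentrated as well, with chromosome 1 holding 86.6% of the peaks in LOUCY, 84.2% in HSB-2, 79.4% in DND-41 and 64.5% in SUP-T13 and chromosome 2 most of the rest, while KOPT-K1 had 1.21% on chromosome 1 and 35.3% on chromosome 2. A transcription factor with sites throughout the genome would be expected on every large chromosome, so shares below are set beside the bases of the same 1-Mb bins as well as beside the whole genome. How the caller was set is not given, so an incomplete list and an absence of peaks elsewhere cannot be told apart. Within the 3 chromosomes, the summits formed dense blocks with empty stretches between them. Over all autosomes, joining summits no more than 2 Mb apart gave 29 runs. The 5 with most summits, all on chromosomes 1 to 3, held 5572 summits (94.4%) in 163 Mb. On chromosome 1 these were 31.2 to 104 Mb with 2316 summits, 107 to 122 Mb with 629 and 143 to 172 Mb with 1393. On chromosome 3 the block from 93.7 to 127 Mb held 974 summits, and on chromosome 2 the block from 213 to 227 Mb held 260. Of the 70 bins of 10 Mb on chromosomes 1 to 3, 39 had no JURKAT summit, and 22 of these 39 held a summit of another list. Where peaks can be listed therefore differed between the lists, and the block on chromosome 3 was particular to JURKAT: its bin from 100 to 110 Mb held 419 JURKAT summits, while no other list had more than 47 in any of the 4 bins from 90 to 130 Mb. The most crowded 1-Mb bin, 119 to 120 Mb of chromosome 1 with 92 summits, contains *NOTCH2*, whose product is a Notch receptor, and the steroid-synthesis gene *HSD3B1*, and the bin from 47 to 48 Mb with 80 summits contains *TAL1* and *STIL*. The bin from 49 to 50 Mb held 77 summits although only *AGBL4*, which encodes a deglutamylase of tubulin, overlaps it, so crowding did not require many genes.

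**Figure D1:**
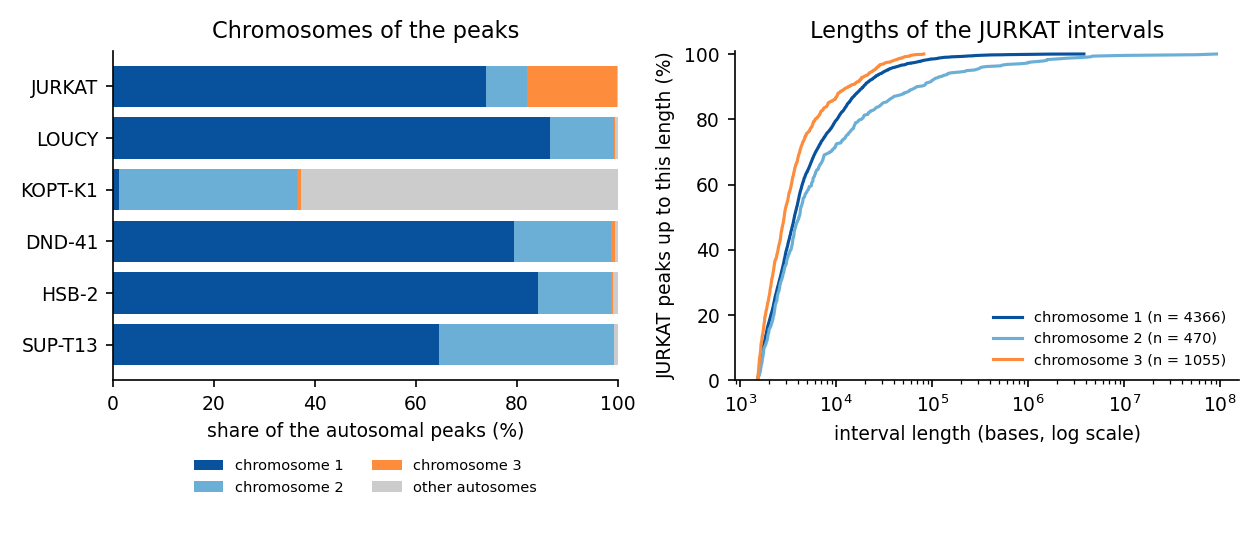
Left: share of the autosomal peaks of each of the 6 STAT5B lists (percent, horizontal) on chromosome 1, chromosome 2, chromosome 3 and the other autosomes, with 1 bar per line. Right: share of the JURKAT peaks (percent, vertical) with an interval up to a given length (bases, log axis), with 1 curve for each of chromosomes 1, 2 and 3; JURKAT had 17.9% of its peaks on chromosome 3, and chromosome 2 had the longest intervals.

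Intervals were wide for a transcription factor. The narrowest had 1510 bases, the median was 3519 bases and the upper quartile 7269 bases. The other lists had larger medians, from 3567 (SUP-T13) to 10520 bases (LOUCY). Their narrowest intervals had from 1185 (SUP-T13) to 3117 bases (KOPT-K1). A sequence-specific factor usually gives much narrower intervals, and wide intervals with a weak signal leave the position of binding uncertain, which is why the summit rather than the interval places each peak here. The intervals together covered 270 Mb, and 18 intervals longer than 1 Mb, 12 on chromosome 2, 5 on chromosome 1 and 1 on chromosome 16, made up 75.03% of that length. These 18 spanned 816 protein-coding genes, so overlap with an interval would assign genes by length alone. The longest ran over 91.6 Mb of chromosome 2 (89836277 to 181452726) with its summit at base 89836499, at the very edge beside the centromere, and the next ran over 56.9 Mb (32916262 to 89826539) with its summit at 82853482. In the whole list 44.01% of summits lay in the outermost 10% of their interval at either end. The smallest gap between neighbouring intervals was 1511 bases and 52.5% of gaps were under 5 kb. That smallest gap is close to the shortest interval of 1510 bases, and whether a caller setting fixed both was not tested.

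Signal was low throughout. The median fold enrichment over the local background was 1.92, the 5th and 95th percentiles were 1.74 and 2.28, and the highest value was 5.12. The median -log10 q was 2.35, with 4316 peaks at 2 or more, 1278 at 3 or more, 117 at 5 or more and 15 at 10 or more. The deposited fold and p values together fix the number of fragments behind each summit and the background expected there, and this number could be recovered for all 5905 peaks. Summits had from 23 to 563 fragments with a median of 27, and 96.1% had 23 to 35. The background had a floor of 12.6 fragments, the genome-wide average of the peak caller, and 2690 peaks (45.6%) sat at that floor, meaning that the input showed no local excess there. This is also why only 983 distinct fold values occur and 43.9% of peaks share 1 of the 10 commonest: a summit with one fragment more moves to the next value on the ladder. Counting error alone is large at that depth. All intervals given with percentages below are exact Clopper-Pearson 95% intervals, which cover counting error only.

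**Figure D2:**
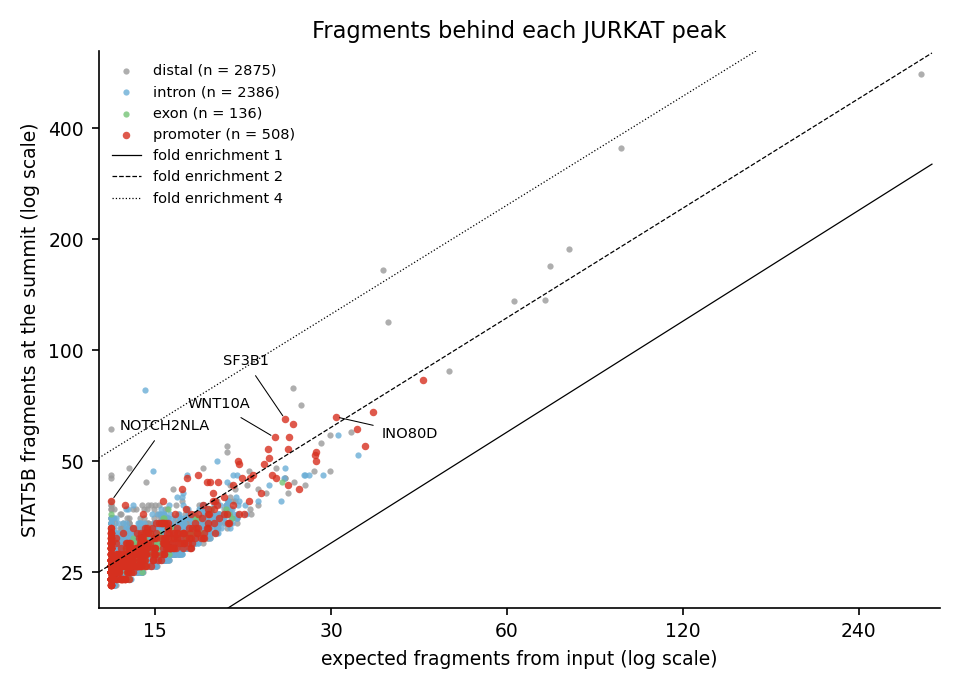
STAT5B fragments at the summit (vertical, log axis) against the fragments expected from the input (horizontal, log axis) for the 5905 JURKAT peaks, coloured by class of site, with lines at fold enrichments of 1, 2 and 4 and labels at 4 promoter genes. Most peaks had 23 to 35 fragments near the floor of 12.6, and all summits with more than 100 fragments were distal and had a raised background.

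Many of the strongest summits lay beside centromeres or in gene arrays, and at 8 of the 15 with -log10 q of 10 or more the 31 bases at the summit occur more than once in the genome (53.3%, with 55.2% of their flanks). The highest -log10 q, 86.2, was at chr1:143232961 in pericentromeric sequence with 353 fragments over a background of 93.8, and further summits of the same block at 143214705 and 143239541 had -log10 q of 36.6 and 25.0. The nearest protein-coding gene to all 3 is the histone gene *H3-7*, at 662, 680 and 655 kb, so no promoter is in reach. The summit at chr16:46380886 (-log10 q 48.9) ended an interval across the centromere of chromosome 16, 198 kb from *SHCBP1*, which encodes a protein that binds the adaptor SHC1. On chromosome 2, the summit at 82853482 (24.4) was 1570 kb from *SUCLG1*, a gene of the citric acid cycle. The highest fold of the list, 5.12, was at chr17:43246645 in an intron of *CCDC200*, where 6 U2 snRNA genes lie within 20 kb, and the next, 4.55, was at chr1:228622421 among 15 genes for 5S rRNA. Both arrays hold many near-identical copies of a gene that is transcribed at a very high rate. Also among the 10 strongest, chr1:121773434 (15.6, with a GAS element) and chr10:133689437 (14.6) were 381 kb from *SRGAP2C* and 62.6 kb from *FRG2B*, both members of recently duplicated families. The summit at chr1:161444948 had a -log10 q of 11.1 with 19 tRNA genes within 20 kb. At least 5 satellite pentamers were found in 26.7% (4 of 15) of the summit windows with -log10 q of 10 or more and in 0.119% (0.0477 to 0.244%) of all 5905 summit windows, beside 0.0276% of all windows on chromosomes 1 to 3. Copied sequence as such was as frequent at summits as beside them: the 31 bases at the summit occurred more than once in the genome for 19.8% of peaks (18.8 to 20.8%) and for 19.8% of positions 1 kb to either side.

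By class, promoters (within 2 kb of a GENCODE start site of a protein-coding gene) held 508 summits or 8.60% (7.90 to 9.35%), exons 136 or 2.30%, introns 2386 or 40.4% (39.2 to 41.7%) and distal sites 2875 or 48.7% (47.4 to 49.97%). The bases of the same 1-Mb bins would give 9.07%, 2.38%, 40.0% and 48.6%, all inside the intervals of the list. Against all autosomal bases (7.77% promoter, 36.7% intron, 53.7% distal) the list looked richer in genes, and against chromosomes 1 and 2 alone the promoter share of bases was 7.92%. On chromosome 3 the bins with summits were poorer in promoters than the chromosome as a whole, with 4.87% against 6.98% of bases. The shares of the whole list did not differ from those of the local bases beyond counting error. At a -log10 q of 5 or more, however, 20.5% of the 117 summits (13.6 to 28.97%) were in promoters against 7.67% of local bases. Chromosomes 1 and 3 showed no promoter excess over all their summits, with 9.28% against 9.98% of bases and 3.602% against 4.87%. Chromosome 2 was different, with 13.8% of summits in promoters (10.8 to 17.3%) against 10.2% of bases and 37.4% in introns (33.1 to 42.0%) against 42.5%.

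**Figure D3:**
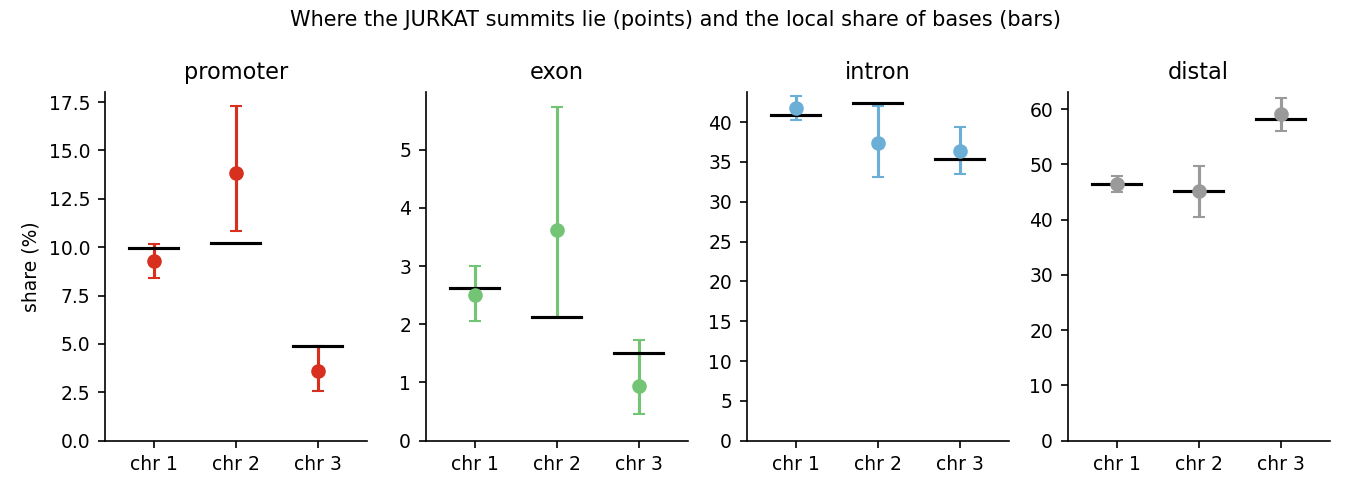
Share (percent, vertical) of the JURKAT summits of chromosomes 1, 2 and 3 in promoters, exons, introns and distal sites, as points with exact Clopper-Pearson 95% intervals, beside the share of bases in the same 1-Mb bins as black bars. On chromosome 2 the promoter share was 13.8% against 10.2% of bases, and the vertical scale differs between the 4 panels.

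Closer to the start site the chromosomes separated further. On chromosome 2, 6.17% of summits (4.17 to 8.74%) lay within 250 bases of a start site where the local bases give 1.92%, a ratio of 3.22, and within 500 bases the shares were 8.30% and 3.37%. For the whole list, 2.15% of summits (1.80 to 2.55%) lay within 250 bases of a start site against 1.62% of bases. A factor at promoters sits just upstream of or over the nucleosome-depleted start site, so the 250-base window is where a promoter signal should appear first. The chromosome 2 excess grew with -log10 q: promoters took 17.4% of its summits at 2 or more and 21.7% at 3 or more. At 5 or more they took 45.7% (28.8 to 63.4%), where the local bases give 11.9%. Some of these are the single summit of a very long interval, as at *SF3B1* (4.65 Mb) and *NOP58* (2.52 Mb). For such summits the bases of 1-Mb bins are not a matched reference. On chromosome 1 the promoter share at 5 or more was 11.1% (4.92 to 20.7%) against 5.81% of bases, inside the counting error. The background at these sites was raised as well. Of the chromosome 2 promoter summits, 44.6% (32.3 to 57.5%) had a background above 1.5 times the floor, against 2.96% (1.54 to 5.12%) on chromosome 1, and their median was 38 fragments over 17.7. Chromosome 2 introns and distal sites had such a background at 9.66% and 9.43% of summits, against 2.30% and 1.73% on chromosome 1. The median fold of the chromosome 2 promoter summits was 1.98, close to the 1.94 of all summits on that chromosome. Open promoters shear more easily and are over-represented in input chromatin, and STAT5B and open chromatin as sources of the chromosome 2 signal cannot be told apart with 1 library. CpG-dense DNA (5 or more CpG within 50 bases of the summit) marked the same sites, at 50.8% (38.1 to 63.4%) of chromosome 2 promoter summits against 13.1% of their flanks 1 kb away, while the whole list had 3.54% against 2.71%. Chromosome 1 promoter summits were also CpG-dense more often than their flanks, at 14.8% (11.5 to 18.7%) against 9.14% (7.24 to 11.3%).

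**Figure D4:**
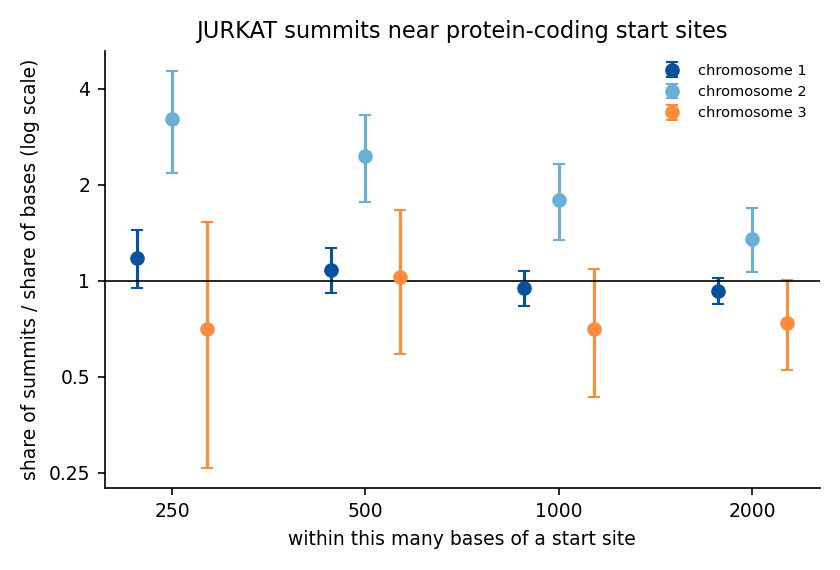
Share of summits within 250, 500, 1000 and 2000 bases of a protein-coding start site (horizontal) divided by the share of bases in the same 1-Mb bins (vertical, log axis), as points with exact Clopper-Pearson 95% intervals for chromosomes 1, 2 and 3. On chromosome 2 the ratio was 3.22 within 250 bases and above 1 at all 4 distances, and on chromosomes 1 and 3 the intervals included 1 at each of them.

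Of 19111 autosomal protein-coding genes, 432 had a JURKAT summit in a promoter (2.26%), 342 on chromosome 1, 62 on chromosome 2 and 28 on chromosome 3. They are 9.84% of the 4389 genes on chromosomes 1 to 3, and the 404 on chromosomes 1 and 2 are 12.2% of the 3308 genes there. With the gene body counted, 822 genes had a summit (4.30%), of which 821 are on chromosomes 1 to 3 (18.7%). These rates stand beside the gene lists below, but the rate that a group of genes would meet depends on whether its members lie inside a dense block. A summit within 2 kb of the start site of the canonical transcript was found for 238 of the 432 genes, and at the others the promoter window belongs to another transcript. Of the 432 genes, 84 had more than 1 promoter summit, with up to 5 at a gene, as at *ABI3BP*, whose product is an extracellular matrix protein, chosen after the values were seen. Promoter summits had a -log10 q of at least 5 at 30 genes, 20 of them on chromosome 2, and 24 of the 30 lay within 500 bases of a start site.

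The highest -log10 q at a promoter, 9.81, belonged to *SF3B1*, which encodes the splicing factor that recognises the branch point and is often mutated in leukemias. Its summit lay at +125 in intron 1, with a fold of 2.54 from 65 fragments over 25.0, in an interval of 4.65 Mb. The next, 8.46, lay between the divergent genes *NDUFB3*, a subunit of respiratory complex I, and *HYCC2*, which helps to place a lipid kinase at the membrane, at -53 and -277. Others on chromosome 2 were *WNT10A*, a secreted Wnt ligand (7.64), the pair *BCS1L*, a mitochondrial chaperone, and *ZNF142*, a zinc finger gene (6.93), *INO80D*, part of a chromatin remodeller (6.83), and *NOP58*, a core protein of box C/D snoRNPs (6.77). The *WNT10A* summit lay in exon 4, near the start site of another transcript. On chromosome 1 the strongest were *NBPF10* and *NOTCH2NLA*, which share a summit of fold 2.94 and -log10 q 7.91, *RWDD3*, a regulator of sumoylation (7.07), and *FOXD3*, a forkhead factor of neural crest and stem cells (6.83). By fold, *PTGFR*, the prostaglandin F receptor, *TYW3*, which modifies a tRNA base (both 2.50), and the muscle kinase gene *SPEG* (2.44) joined the list. *WNT10A* was the one among these 12 and 10 genes with a promoter summit in 4 other lists, and *SF3B1*, *PTGFR* and *TYW3* had none in any other.

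Outside chromosomes 1 and 2 all promoter genes were on chromosome 3. The 10 strongest there were *ABI3BP*, *C3orf85*, *MYLK* (the myosin light chain kinase), *RETNLB* (a resistin-like protein secreted in the gut), *ROPN1B* and *ROPN1* (sperm flagellum proteins), *ALCAM* (the CD6 ligand), *ROBO1* (an axon guidance receptor), *KALRN* (a signalling protein of neurons) and *MYH15* (a myosin). Their -log10 q ran from 2.33 to 3.83 and none of the 10 had a promoter summit in another list. That was nearly given in advance, since other lists had almost no summits there. From 100 to 110 Mb, for example, no other list had more than 4, beside 419 in JURKAT. *ALCAM* is the member with a role in T cells, since its ligand CD6 sits in the immunological synapse, and its summit at +110 had 32 fragments over 16.1.

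Several clustered gene families were met at many of their members, and the families in this paragraph were chosen after the values were seen. Promoter summits were found at 10 of 14 *NBPF* genes and at all 5 genes of *NOTCH2* and its human-specific copies *NOTCH2NL*, which raise Notch signalling in cortical progenitors. Of the 15 promoter summits of these copied families, 12 (80.0%) had a sequence at the summit that occurs elsewhere in the genome, as did 90% of their flanks, so reads there cannot be placed with certainty in 1 copy. Late cornified envelope genes of the skin barrier had 9 of 19, Fc receptor-like genes of B cells 5 of 8, and the voltage-gated potassium channels 4 of the 5 on chromosomes 1 to 3 (of 16 autosomal genes), among them *KCNA3*, the main potassium channel of effector memory T cells. On chromosomes 1 to 3, where 9.84% of all protein-coding genes had a promoter summit, histone genes had 1 of 18 (5.56%), *ZNF* genes 5 of 50 (10%) and olfactory receptor genes 10 of 77 (12.99%). The small proline-rich genes, which lie beside the late cornified envelope genes, had 0 of 11.

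None of 14 established STAT5 target genes had a summit in promoter or body in JURKAT, and none had a promoter summit in any of the 5 other deposited lists. The study reports STAT5B peaks at several of these genes in the lines with high pY-STAT5. The list holds *CISH*, *SOCS1*, *SOCS2*, *SOCS3*, *PIM1*, *IL2RA*, *BCL6*, *OSM*, *CCND2*, *CCND3*, *BCL2*, *BCL2L1*, *MCL1* and *RUNX3*, but 4 of these are on chromosomes 1 to 3, and the others are on chromosomes with almost no peak in JURKAT. *CISH*, the feedback inhibitor that STAT5 induces most directly, lies 25.5 Mb from the nearest summit, outside the chromosome 3 block, and *BCL6* and *RUNX3* lie 53.1 and 2.62 Mb from the nearest, while *MCL1*, a survival factor, lies inside a block with 11 summits within 100 kb of its start site. Apart from *MCL1*, a missing summit therefore carries little information, since the other genes lie outside the blocks or on chromosomes with almost no summit at any kind of site.

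Of 53 genes for cytokine receptors and JAK-STAT signalling, 20 are on chromosomes 1 to 3, and 5 had a promoter summit and 7 a summit in promoter or body. The promoter genes were *IL6R* (the IL-6 receptor), *IL12RB2* and *IL23R* (receptor chains for IL-12 and IL-23 that signal to STAT4 and STAT3), *CSF3R* (the G-CSF receptor) and *PIAS3* (a SUMO ligase that inhibits STATs). Apart from *CSF3R*, whose summit was at -1067 outside the gene, these summits lay in introns 3, 5, 6 and 9, near start sites of other transcripts than the canonical one. *IL23R* had 7 summits with -log10 q up to 4.24 and *IL12RB2* had 6. In introns or alternative transcripts, *JAK1*, the kinase through which IL-7 activates STAT5, had 6 summits with fold from 1.76 to 2.16, and the leptin receptor *LEPR* had 11. The median fold at the best promoter summit of the 5 genes was 1.98, beside 1.95 for all 432 promoter genes, so they did not stand above the rest. *STAT4* had no summit: the nearest was 0.527 Mb away, although the gene lies inside an interval of 10.2 Mb.

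The T-cell receptor pathway had 3 genes with a summit in a promoter window among 34 genes on chromosomes 1 to 3 (of 69 in all): *CD247*, the zeta chain of the receptor, *BCL10*, which links it to NF-kappaB, and *VAV3*, a signalling protein downstream of the receptor. The summit of *CD247* was in intron 4 and that of *VAV3* in intron 14, near start sites of other transcripts than the canonical one, and that of *BCL10* was in intron 1. The gene bodies of *VAV3* (13 summits), *CD58* (4; the ligand of CD2), *PTPN22* (3; a phosphatase that dampens receptor signalling), *FOSL2* (2; an AP-1 subunit), *PIK3R3* (2; a PI3-kinase subunit), *CD28* (1; the costimulatory receptor) and *SH2D1B* (1; an adaptor) also held summits, which makes 9 genes with promoter or body counted. The *CD247* summit had a -log10 q of 1.46, near the weakest of the list, and *BCL10* had 3.15 from 33 fragments. *CD28* had the lowest fold of these genes, 1.55, on a background of 33.3 fragments. Among genes at the heart of T-cell identity, *CD2* was close to a peak without holding one, with the nearest summit at -8.37 kb from its start site. *LCK*, in contrast, had no summit within 100 kb.

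Transcription factors of T-ALL gave 2 promoter genes among 16 on chromosomes 1 to 3 (41 in all), among them *STIL*, a centrosomal gene beside *TAL1*. *STIL* had 6 summits, of which the 2 in promoter windows lay in introns 2 and 5 near start sites of other transcripts, while the nearest summit to its canonical start site was at -8.43 kb. *TAL1*, the defining oncogene of JURKAT, had 1 summit, in an intron at 11.9 kb from its start site with 29 fragments over 12.6 (fold 2.20), in an interval of 25698 bases that covers the gene and its start site. Within 100 kb of that start site there were 18 summits. *IKZF2*, a relative of Ikaros, had 6 summits in its body and *MEF2D* had 1. The best promoter summit of *STIL* had a -log10 q of 2.23.

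Interferon-response genes had 4 promoter genes among 21 on chromosomes 1 to 3 (36 in all): *AIM2*, a sensor of cytosolic DNA, *IFI44L*, and the guanylate-binding proteins *GBP1* and *GBP2*. Genes that mark other lineages, taken as a control list, had 8 among 40 (51 matched), among them *FCRL1*, *FCRL3*, *FCRL4* and *FCRL5* of B cells, *S100A12* and *MNDA* of myeloid cells and *IVL* of keratinocytes. That is 20% of the control genes on these chromosomes, beside 25% for cytokine and JAK-STAT genes, 19.0% for interferon genes, 12.5% for T-ALL factors, 8.82% for T-cell receptor genes and 0% for STAT5 targets. Lists of this size differ by a few genes only, and the differences between them were not tested.

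Introns held 2386 summits, and of the 2125 that fall in an intron of the canonical transcript, 463 (21.8%) were in intron 1 and 321 (15.1%) in intron 2. First introns are often long. The share of intron bases by intron number was not computed, so no preference for intron 1 can be read from these shares. The genes with most summits were very long: *AGBL4* with 110 summits in 1491 kb, *DAB1* (an adaptor in neuronal migration) with 91, *EPHA6* (an ephrin receptor) with 78, *NEGR1* (a neuronal adhesion protein) with 45, *DPYD* (which degrades pyrimidines) with 39, *STXBP5L* (a regulator of exocytosis) with 39, *LRRC7* (a synaptic scaffold) with 36 and *COL24A1* (a collagen) with 31. Relative to the density of the surrounding 10 Mb, the 8 genes ranged from 1.33 times (*DAB1*) to 7.26 times (*STXBP5L*). *EPHA6* and *STXBP5L*, both in the chromosome 3 block, had no summit of any other list in their bodies. Other lists had few summits in that block, with at most 47 from 90 to 100 Mb and 1 from 120 to 130 Mb. By density, among genes of at least 20 kb, the leading 8 were *GSTM1* (a glutathione transferase, 18.8 per 100 kb), *ZNF697*, *SSX2IP* (a centrosomal protein), *TRMT61B* (a mitochondrial tRNA methylase), *KCNA3*, *NOTCH2NLC*, *H2BC18* (a histone gene) and *C2orf16*, with 3 to 11 summits each.

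Distal summits had a median distance to a protein-coding start site of 69.7 kb, and 41.9% were more than 100 kb away. The same distance was not computed for the distal bases of the same bins, so it has no reference. Distal here means outside protein-coding genes: with genes of every biotype the distal share of all summits was 33.0% instead of 48.7%. Distal STAT5 sites in T cells usually cluster as enhancers around cytokine-responsive genes, whereas the nearest genes given here only place the summits. Of 18390 autosomal lncRNA genes, 251 held a distal summit, and their share on chromosomes 1 to 3 alone was not computed. By raw count, in a choice made after the values were seen, *PKN2-AS1* led with 30 in 1064 kb. A gene without a symbol had 28 in 407 kb, *LINC01138* had 26 in 229 kb, and *FLG-AS1* and *LINC00624* had 24 each. Strong distal summits with a single-copy sequence included chr2:215213316 (fold 3.37, -log10 q 11.8), 74.7 kb from the keratinocyte lipid transporter gene *ABCA12*, and chr2:204027224 (fold 2.59, -log10 q 8.41), 65.6 kb from *ICOS*, an inducible costimulator of T cells. The latter has 53 fragments over 19.9 in an interval of 2.06 Mb.

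The GAS element was not enriched at JURKAT summits. It was present within 50 bases of 188 summits, 3.18% (2.75 to 3.66%), while windows 1 kb to either side had it in 3.20% (2.89 to 3.54%) and all windows of this size on chromosomes 1 to 3 in 3.71%. The stricter palindrome TTCCNGGAA was present at 0.237% of summits and 0.212% of flanks, and within 100 bases of the summit the GAS shares were 6.82% and 7.16%. A factor that binds the palindrome directly piles up over it, so a peak at the centre would be the mark of direct binding. The count of GAS elements in 50-base bins around the summits had no such peak, ranging from 92 to 131 per bin. Among the 117 summits with -log10 q of 5 or more, 9 had a GAS element, 7.69% (3.58 to 14.1%), against 5.17% (2.70 to 8.86%) in flanks, a difference inside the counting error. No class stood out either, with 2.76% at promoters, 3.02% in introns and 3.48% at distal sites. Spacer variants with 2 or 4 bases in place of 3, and the motifs of ETS, RUNX, E-box, GATA, TCF/LEF, MYB, AP-1, Sp/KLF and NF-Y proteins, all had overlapping intervals at summits and flanks. The largest share of these was NF-Y with 14.4% against 14.6%, and the CpG-rich Sp/KLF motif had 1.74% against 1.30%.

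**Figure D5:**
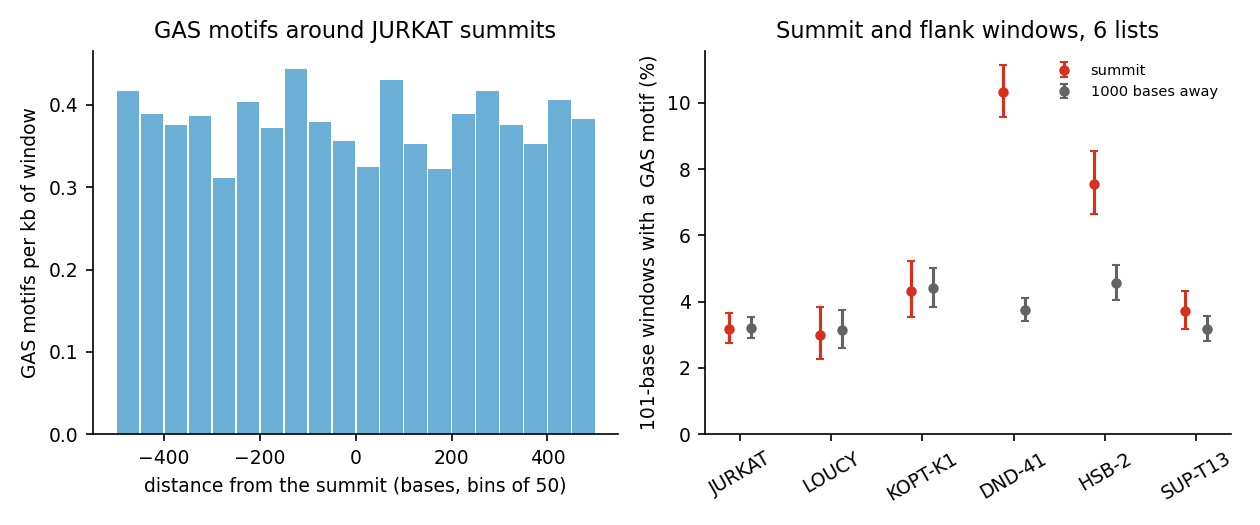
Left: GAS elements per kb of sequence (vertical) in bins of 50 bases by distance from the JURKAT summit (horizontal, bases). Right: share of windows with a GAS element (percent, vertical) at summits and 1000 bases away in each of the 6 lists, with exact Clopper-Pearson 95% intervals; JURKAT had 3.18% at summits and 3.20% in flanks, and DND-41 had 10.3% and 3.76%.

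GAS elements were no more frequent at promoter summits (2.76%) than in their flanks (2.95%), and 15 of the 432 genes had one. The 10 strongest were *DNTTIP2* (a partner of terminal transferase, -log10 q 4.66), *IFT172* (ciliary transport, 4.24), *NBPF14* and *NOTCH2NLB* (a shared summit, 3.83), *KANK4* (3.21), *LCE4A* (3.06), *USP33* (a deubiquitinase, 2.83), *ADAM30* (a testis protease, 2.29), *GPBP1L1* (2.14) and *CUL3* (a ubiquitin ligase scaffold, 2.12). *IFT172* had promoter summits in KOPT-K1, DND-41, SUP-T13 and LOUCY as well, and at *NBPF14* the element is the strict palindrome, 3 bases from the summit.

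As reference, the same measure gave 10.3% GAS at summits against 3.76% in flanks for DND-41 and 7.55% against 4.55% for HSB-2, both high pY-STAT5, with intervals that do not overlap. For KOPT-K1 (4.32% against 4.41%), SUP-T13 (3.72% against 3.18%) and LOUCY (2.99% against 3.15%) the intervals overlapped as in JURKAT. The method therefore could find the palindrome where it was present, and 2 of the 4 high pY-STAT5 lists and neither low one showed it. With 1 library per line, the phosphorylation state and the quality of each library cannot be told apart.

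Weak JURKAT summits were seldom shared with another list, and strong ones often. Another list had a summit within 1 kb of 902 JURKAT summits, 15.3% (14.4 to 16.2%), and of 13.4% of positions shifted by 20 kb, which keeps the blocks but moves the site. Sharing differed with strength: it was 11.8% (10.3 to 13.5%) at a -log10 q under 2, 15.8% (14.7 to 16.95%) from 2 to 5 and 42.7% (33.6 to 52.2%) at 5 or more, where the shifted positions gave 12.7%, 13.5% and 19.2%. Of the 25 strongest summits, 15 were shared. Per list the shares were 6.32% for DND-41 (6.07% after the shift), 4.64% for HSB-2 (3.40%), 3.08% for SUP-T13 (3.07%), 2.96% for LOUCY (1.85%) and 0.288% for KOPT-K1 (0.144%). Counted from the other side, JURKAT summits met 9.16% of LOUCY summits, 9.03% of HSB-2 summits, 6.24% of DND-41 summits, 4.18% of SUP-T13 summits and 0.707% of KOPT-K1 summits. Over the whole list the shifted positions had most of the sharing, and the 95% intervals lay above them for HSB-2 (4.12 to 5.21%), LOUCY (2.55 to 3.43%) and KOPT-K1 (0.168 to 0.46%). Within 500 bases DND-41 was above as well, with 3.81% (3.34 to 4.33%) against 2.91% after the shift. Summits shared with 1 or 2 lists were more often in promoters, 13.1% (10.99 to 15.5%) against 7.76% (7.03 to 8.53%) for those in no other list. A single summit, chr1:144103651, was within 1 kb of summits in 4 other lists, and 58.3% of the 12 summits met by at least 3 lists had a sequence at the summit that occurs more than once. By gene, 158 of the 432 promoter genes had a promoter summit in no other list, a count without a matching share over all genes. From the other side, JURKAT had a promoter summit at 47.7% of the HSB-2 promoter genes and 41.5% of those of LOUCY. The shares were 26.5% for DND-41 and for SUP-T13 and 6.32% for KOPT-K1. Of all autosomal protein-coding genes 2.26% had one, and of those on chromosomes 1 to 3 9.84%. These rates do not keep the dense blocks, as the shift does for summits. Whether the gene overlap exceeds that of shared blocks was therefore not tested. Promoter summits in 4 other lists were found at 7 of the 432 genes: *IFT172*, *PLB1*, *PNKD*, *PSMD4*, *STXBP3*, *TARS2* and *WNT10A*. Among them, *PSMD4* encodes a ubiquitin receptor of the proteasome, *STXBP3* a protein of vesicle fusion and *TARS2* the mitochondrial threonyl-tRNA synthetase.

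The peaks rest on 1 library with a median of 27 fragments per summit, so no peak has been seen in a repeat of the experiment. The concentration of the list on 3 chromosomes limits every statement about genes to those chromosomes, and its cause was not tested.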

How the data were processed

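The deposited STAT5B peak lists of 6 T-ALL lines were used, each called on 1 STAT5B library against the input of the same line. Upstream, the authors used PRINSEQ-lite for read filtering, BWA 0.7.15-r1140 for alignment to GRCh38, SAMtools 1.4 for the alignment files and MACS2 for the peak calls. The deposited values are the fold enrichment (a ratio of STAT5B pileup to local background), the -log10 p and the -log10 q of the summit, and a score that is 10 times the -log10 q. Summit position is the interval start plus the summit offset, printed from 1. The number of fragments n and the background were recovered from the deposited ratio, read as n plus 1 over background plus 1, and the Poisson p, within 0.001 of the -log10 p. Summits were assigned to GENCODE version 44 protein-coding genes: promoter (2 kb around any start site), then exon, intron and distal. Shares have exact Clopper-Pearson 95% intervals, for counting error only. Base shares of all autosomes and of chromosomes 1 and 2 were planned, while those of the same 1-Mb bins and of chromosomes 1 to 3 were added after the data were seen. Motifs were searched on both strands within 50 bases of the summit and of points 1000 bases to either side, and copies of the central 31 bases were counted in the whole genome. Genes named are those of 6 role lists with a promoter summit (and of the first 4 lists with a body summit), the 12 promoter genes of highest -log10 q, the 10 of highest fold, the 10 of highest -log10 q with a GAS element, the 10 outside chromosomes 1 and 2, those nearest the 10 strongest summits, and the 8 with most summits and the 8 with most per 100 kb. Some genes that this rule covers are not reported. Members and lists were chosen with earlier results of these data known. The scripts used Python 3.11.15, NumPy 2.4.6, SciPy 1.17.1 and matplotlib 3.10.9. They were tested on simulated data, where 200 of 200 planted promoter genes, 300 of 300 motif windows and 500 of 500 fragment counts were recovered with 0 false calls. Peaks on chromosome Y were left out of the comparisons. Alternatives tried were the -log10 q threshold, the interval length, the promoter window, the set of transcripts, the motif and its window, and the distance for sharing.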

Additional observations from a re-analysis of the deposited data

Results flagged for a closer look

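The JURKAT list has 411 peaks on chromosome Y, 6.51% of its 6316 peaks, which no comparison of the report uses. They have a median width of 2514 bases and a highest -log10 q of 58.4, and they lie between 11.01 and 26.6 Mb. Lists of the other lines have from 9 (SUP-T13) to 428 (LOUCY) peaks there. There is no control list for this chromosome, and the cause of the signal was not tested.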

How the results depend on the processing

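For 7 results, 30 alternatives were computed, of which 13 gave a value close to the reported one (within 1.5 times for counts, within the 95% interval for shares) and 17 did not. With a -log10 q of at least 5 the list held 117 peaks instead of 5905, the GAS share was 7.69% instead of 3.18%, the promoter share 20.5% instead of 8.60%, the intron share 23.9% instead of 40.4% and the distal share 54.7% instead of 48.7%. With a -log10 q of at least 2 the intron share was 39.0% and the distal share 50.2%. Chromosomes other than 1 and 2 held 1069 peaks. A 1 kb promoter window gave 287 promoter genes and a promoter share of 5.18%, and the canonical start site alone gave 238 genes and 3.76%. With genes of every biotype the distal share was 33.0%. The stricter palindrome TTCCNGGAA gave 0.237%, and a window of 100 bases to either side gave a GAS share of 6.82%. Sharing with another list was 8.98% within 500 bases and 49.0% within 5 kb, against 15.3% within 1 kb. The fewer sites, shorter windows or wider classes of these alternatives lower or raise the values by construction, except for the shares of peaks with a higher -log10 q, where the cause was not tested. Applying the -log10 q of 5 to the promoter, intron and distal shares was chosen after seeing the data. Restricting promoter genes to summits whose 31 bases occur once in the genome, also chosen after seeing the data, gave 382 genes. The strongest class has 117 summits, which limits the precision of its shares.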
